A study of Rattus norvegicus with 6 samples.

Results

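Leukocyte-enriched miRNAs were followed in rat plasma: 9 were chosen by name, for their known expression in white blood cells, from the 677 rat miRNAs on the array. They comprise the myeloid rno-miR-223, the lymphoid rno-miR-150, rno-miR-342-3p, rno-miR-181a and rno-miR-181b, the pan-leukocyte pair rno-miR-142-3p and rno-miR-142-5p, and the inflammatory rno-miR-146a and rno-miR-146b, named without the species prefix from here on. Plasma came from 6 male Wistar rats, 3 given the vehicle alone (0.9% saline) and 3 given thioacetamide at 100 mg/kg in that saline, both by intraperitoneal injection, and was taken 24 h later. Ages are not given in the labels, and the 6 rats have different body weights, so the replicates are taken as separate animals. RNA from 125 µl of plasma per rat was labelled with 1 dye and hybridised to 1 array. The comparison of the groups asks which plasma miRNAs differed after a dose of thioacetamide, a compound that injures the liver.

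A miRNA is a short RNA that, loaded into an Argonaute protein, pairs through its seed near the 5′ end with messenger RNAs and lowers their translation and stability. Those described here are made mostly in blood-forming and immune cells: miR-223 in neutrophils and monocytes, miR-150 in mature lymphocytes, miR-142 in nearly all leukocytes, miR-181 in developing lymphocytes, and miR-146 as a target of NF-κB that dampens Toll-like receptor signalling. Plasma holds no intact cells in principle, but carries miRNAs released from blood cells and tissues in protein complexes and vesicles, and RNA from cells broken at sampling.

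The mature sequences show which members share a seed and which differ in the bases the probes read. They are from RefSeq (assembly GRCr8), which matched 8 of the 9 members, and the capitals mark the seed, bases 2 to 8 from the 5′ end.
miR-223: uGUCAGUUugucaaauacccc
miR-342-3p: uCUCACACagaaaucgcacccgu
miR-181a: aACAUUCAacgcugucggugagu
miR-181b: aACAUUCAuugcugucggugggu
miR-142-3p: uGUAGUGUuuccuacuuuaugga
miR-142-5p: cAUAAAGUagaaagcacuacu
miR-146a: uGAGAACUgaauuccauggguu
miR-146b: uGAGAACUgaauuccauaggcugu
The 8 sequences hold 6 different seeds, since miR-181a shares its seed with miR-181b, and miR-146a shares its seed with miR-146b. Counted from the 5′ end, miR-181a and miR-181b differ by A9U, C10U and A21G, and miR-146a and miR-146b differ within their first 22 bases by G18A and U21C. The 2 arms of miR-142 come from 1 precursor and have different seeds.

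Each member was read by 2 probes of slightly different length, each printed in 10 spots. The longer probes of the members that were tested, and of miR-146a, are shown because their base content bears on the background described next, and capitals mark G.
miR-223 probe: GGGGtatttGacaaactGaca
miR-150 probe: cactGGtacaaGGGttG
miR-342-3p probe: acGGGtGcGatttctGt
miR-146a probe: aacccatGGaattcaGttct
Per the scanner files, which use the rn4 build, these probes lie at chrX:83869121-83869140 (miR-223), chr1:95596098-95596113 (miR-150), chr6:132990864-132990879 (miR-342-3p) and chr10:28476387-28476405 on the reverse strand (miR-146a). For 7 of the 9 members the listed span is 1 base shorter than the probe. The miR-181a and miR-181b probes are listed at sites on chromosomes 3 and 13, so a signal there cannot be assigned to either copy. In the RefSeq annotation, Mir342 lies within Evl, the 2 miR-181 genes on chromosome 3 lie within Nr6a1, Mir142 overlaps Tspoap1, and Mir150 overlaps no other gene listed.

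Few plasma miRNAs were measurable on these arrays. A miRNA counted as detected on an array when over 50% of the unmarked spots of at least 1 of its probes were well above background, as the scanner software calls it. By that rule 16 to 62 miRNAs were detected on a vehicle array and 22 to 83 on a thioacetamide array, 578 were detected on no array, and the 59 detected on at least 3 arrays were tested. The arrays also differed by their place on the slide: columns 1 and 2 held 2 vehicle arrays and 1 thioacetamide array, and columns 3 and 4 held 1 vehicle array and 2 thioacetamide arrays. On columns 1 and 2, 16 to 27 miRNAs were detected, and on columns 3 and 4, 62 to 83. Slide place was therefore not balanced between the groups, and the changes of the 3 tested members are also given within the columns. In such values, and in any interaction of treatment and side, 1 of the 2 groups on each side is a single array. The number of arrays limits the precision of every value.

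Of the 9 leukocyte-enriched miRNAs, 3 were tested (miR-223, miR-150 and miR-342-3p), and none of these passed the test for a difference between the groups (limma, Benjamini-Hochberg adjusted p under 0.05). Over all 59 tested miRNAs, 16.9% passed, 15.3% higher after thioacetamide (9 miRNAs) and 1.69% lower (1 miRNA). An unadjusted p under 0.05 was found for 35.6% of the 59 and for none of the 3 members. The groups did not overlap for 37.3% of the 59, and overlapped for all 3 members. The median log2 change of the 3 members was -0.48, and that of all 59 was 0.45. The other 6 members were detected on no array, in either group. Values below are scaled signals, in arbitrary units, unless said otherwise: the sum of a miRNA's probe signals, divided by the array's 75th percentile of the probes detected on all 6 arrays.

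miR-223, the neutrophil and monocyte miRNA, had scaled signals of 148, 136 and 152 in vehicle rats 1 to 3, and of 70.6, 175 and 266 in thioacetamide rats 1 to 3. The vehicle values lay close together, while the thioacetamide values fell on both sides of them, so the groups overlapped. On the log2 scale the means were 7.19 ± 0.08 (SD, n = 3) and 7.21 ± 0.98 (SD, n = 3). The log2 change was 0.03 ± 0.54 (SE; limma adjusted p = 0.958), with a 95% confidence interval from -1.28 to 1.34, which spans more than a doubling in either direction. Only vehicle 1 and thioacetamide 2 and 3, the arrays of columns 3 and 4, had miR-223 well above background. The arrays of columns 3 and 4 alone gave a log2 change of 0.54 and those of columns 1 and 2 alone -1.03, with the side of the slide as a block giving -0.25 (limma adjusted p = 0.717). The difference between the 2 sides in the treatment change was -1.57 ± 0.52 (SE; limma interaction term, adjusted p = 0.0744) and did not pass the test; it rests on thioacetamide 1 and vehicle 1 as the lone arrays of their group on their side, and on values not well above background on columns 1 and 2. The interaction passed for 25.4% of the 59 tested miRNAs, and its unadjusted p was under 0.05 for 49.2% of them, miR-223 and miR-342-3p included.

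miR-150, which in lymphocytes restrains the transcription factor Myb, had scaled signals of 139, 349 and 319 in vehicle rats 1 to 3, and of 180, 118 and 109 in thioacetamide rats 1 to 3. Vehicle 2 and 3 were the highest, but vehicle 1 lay below thioacetamide 1, so the groups overlapped. The log2 means were 7.96 ± 0.73 (SD, n = 3) and 7.05 ± 0.39 (SD, n = 3). The log2 change was -0.91 ± 0.49 (SE; 95% confidence interval -2.09 to 0.27; limma adjusted p = 0.220). It amounted to -0.89 on columns 1 and 2 and to -0.29 on columns 3 and 4, and the side as a block gave -0.59 (limma adjusted p = 0.260). With thioacetamide 1 left out, the scaling probes, the floor and the tested set were chosen anew from the remaining arrays. The log2 change was then -1.72 and passed the test (limma adjusted p = 0.0229). How much of this shift came from the new scaling was not tested. Thioacetamide 1 was the only array of its group on columns 1 and 2. Without it 47.2% of the 53 miRNAs then tested passed (13.2% lower), so a call there was common. miR-150 was well above background on vehicle 1 and 2 and on thioacetamide 2 and 3. The scanner software's own call per miRNA, which uses another rule, marked miR-150 as detected on every array, vehicle 3 and thioacetamide 1 included.

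miR-342-3p, made from an intron of Evl and abundant in lymphocytes, had scaled signals of 69.5, 240 and 237 in vehicle rats 1 to 3, and of 161, 96.1 and 93.2 in thioacetamide rats 1 to 3. Here too vehicle 2 and 3 were the highest, and vehicle 1 was the lowest of all 6. The log2 means were 7.30 ± 1.03 (SD, n = 3) and 6.82 ± 0.44 (SD, n = 3). The log2 change was -0.48 ± 0.60 (SE; 95% confidence interval -1.92 to 0.95; limma adjusted p = 0.599). The side as a block gave -0.06 (limma adjusted p = 0.926), and the separate values were -0.57 for columns 1 and 2 and 0.45 for columns 3 and 4. The interaction of treatment and side for miR-342-3p had an adjusted p of 0.0961 (limma). miR-342-3p was well above background on vehicle 1 and on thioacetamide 2 and 3, which all lie on columns 3 and 4. The scanner software's own call per miRNA marked it as detected on vehicle 2 as well.

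**Figure D1:**
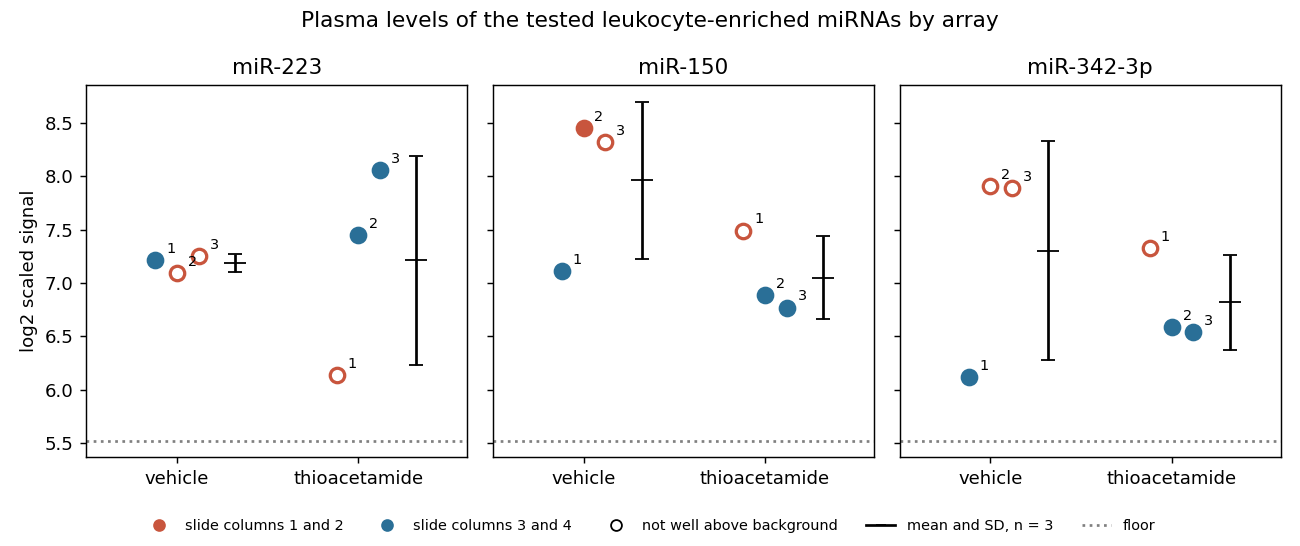
Log2 scaled signal (y axis) of miR-223, miR-150 and miR-342-3p in each vehicle and thioacetamide array (x axis, numbered by replicate), coloured by slide side, with open circles for arrays where the miRNA was not well above background and bars for the mean and SD (n = 3). miR-150 and miR-342-3p are higher on all 3 arrays of columns 1 and 2 than on all 3 of columns 3 and 4, while both groups overlap for each miRNA.

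Both tested lymphoid miRNAs were separated by the side of the slide and not by the treatment. miR-150 lay between 180 and 349 on columns 1 and 2 and between 109 and 139 on columns 3 and 4, with no overlap. miR-342-3p lay between 161 and 240 on columns 1 and 2 and between 69.5 and 96.1 on columns 3 and 4, again with no overlap. Before scaling the sides did not overlap either. Unscaled miR-150 was 200 to 409 on columns 1 and 2 and 91.8 to 136 on columns 3 and 4. Unscaled miR-342-3p was 148 to 366 on columns 1 and 2 and 65.0 to 116 on columns 3 and 4. Of all 59 tested miRNAs, 25.4% had sides that did not overlap, and 15.3% were higher on every array of columns 1 and 2 than on any of columns 3 and 4. In the fit with both terms, the side coefficient (columns 1 and 2 minus columns 3 and 4) was 0.97 ± 0.35 on the log2 scale for miR-150 (SE; limma adjusted p = 0.115), 1.27 ± 0.38 for miR-342-3p (limma adjusted p = 0.0673) and -0.83 ± 0.47 for miR-223 (limma adjusted p = 0.287). None of the 3 passed, against 15.3% of the 59 (11.9% higher on columns 1 and 2), and at an unadjusted p under 0.05, which 27.1% of the 59 reached, miR-150 and miR-342-3p stood among them.

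The background differed between the sides as well. Over the 1429 probes of the 578 miRNAs detected on no array, among them those of the 6 undetected members, the SD of the unscaled signal was 34.1, 36.7 and 94.0 on vehicle 2, vehicle 3 and thioacetamide 1, and 3.87, 6.71 and 10.8 on vehicle 1, thioacetamide 2 and thioacetamide 3. This background was a shared pattern on columns 1 and 2, where the signals of these probes correlated between arrays with Pearson's r from 0.973 to 0.984 (a description across probes, which are not replicates), against 0.794 to 0.906 within columns 3 and 4. It was higher in probes with more G bases: r with the G count was 0.716 to 0.733 on columns 1 and 2 and 0.340 to 0.486 on columns 3 and 4. Among undetected probes with 6 G, of which there were 122, the median unscaled signal was 31.3, 32.4 and 88.1 on vehicle 2, vehicle 3 and thioacetamide 1, and 3.00, 3.54 and 7.57 on vehicle 1, thioacetamide 2 and thioacetamide 3. The 6 probes of the tested members hold 5 or 6 G, whereas the 12 probes of the other members hold 2 to 4 and the median undetected probe holds 4. The part of this background in the changes of miR-223, miR-150 and miR-342-3p was not tested, beyond recomputing them after it was removed, as given further on.

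**Figure D2:**
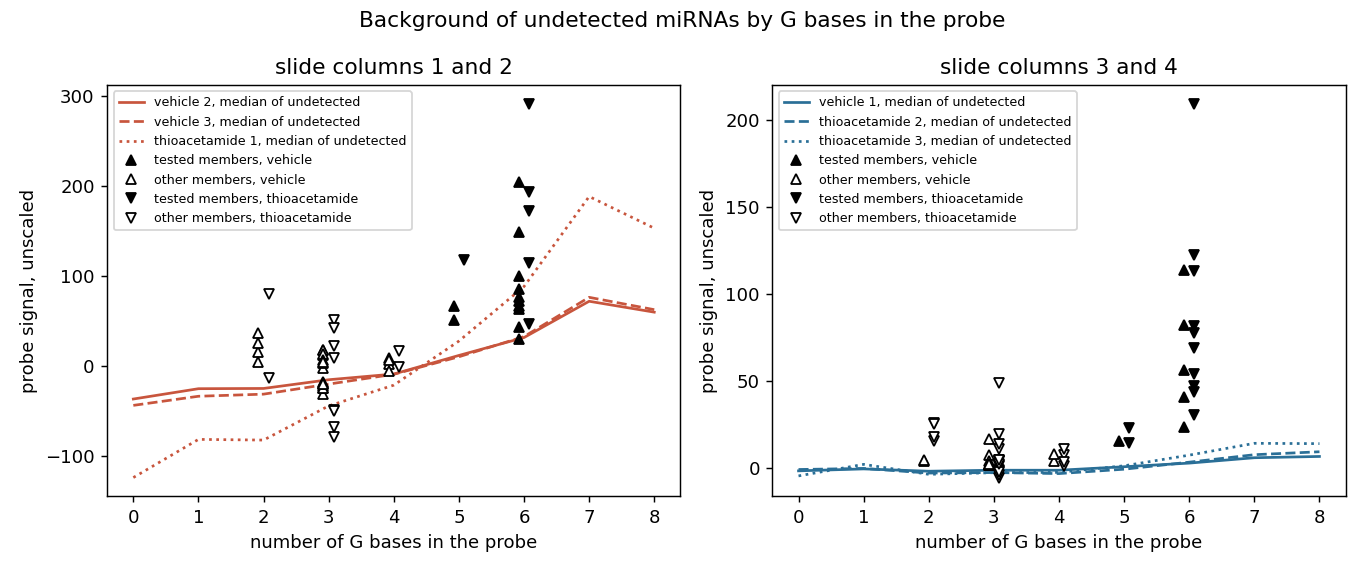
Unscaled probe signal (y axis) against the number of G bases in the probe (x axis), with arrays of slide columns 1 and 2 on the left and of columns 3 and 4 on the right; lines are the median of undetected probes per array (bins of at least 20 probes) and triangles are member probes, filled for the tested members. The lines climb with G on the left, from a median of -44.7 at 3 G to 188 at 7 G on thioacetamide 1, are lower again at 8 G, and stay near 0 on the right.

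Each probe was also placed among all undetected probes of its own array, whatever their G count. On columns 3 and 4 both miR-223 probes exceeded every undetected probe on 3 of 3 arrays. All 3 tested members passed the detection rule on these arrays and the reference miRNAs passed it on none. High ranks there are therefore not separate evidence of detection. On columns 1 and 2 the miR-223 probes lay at the 75.3 to 93.5 percentile. The miR-223 probes hold 6 G, so the undetected probes with 6 G are the closer match. The shorter miR-223 probe was under their median unscaled signal on vehicle 3 (29.4 against 32.4) and thioacetamide 1 (45.9 against 88.1). It was above that median on vehicle 2 (42.6 against 31.3). The longer miR-223 probe was above it on vehicle 2, vehicle 3 and thioacetamide 1 (63.1, 66.0 and 115). The miR-342-3p probes lay at the 93.8 to 98.6 percentile on columns 1 and 2 and at the 99.8 to 100 percentile on columns 3 and 4. The longer miR-150 probe exceeded every undetected probe on 3 of 3 arrays of columns 3 and 4 and on 2 of 3 of columns 1 and 2, the exception being thioacetamide 1, where it reached the 99.6 percentile. The shorter miR-150 probe, with 1 base fewer and 5 G, lay at the 88.2 to 94.1 percentile on columns 1 and 2 and reached at most the 99.5 percentile on columns 3 and 4. Both probes of each tested member gave log2 changes of the same sign: 0.14 and 0.08 for miR-223, -0.72 and -0.90 for miR-150, and -0.59 and -0.46 for miR-342-3p. The probes of a member differ by 1 end base, so they are not separate evidence of the sign. Probe values were also raised to a floor of 4.92 on the log2 scale. The shorter probe was under it on all 3 arrays of columns 3 and 4 for miR-150, on thioacetamide 1 for miR-223 and on vehicle 1 for miR-342-3p.

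**Figure D3:**
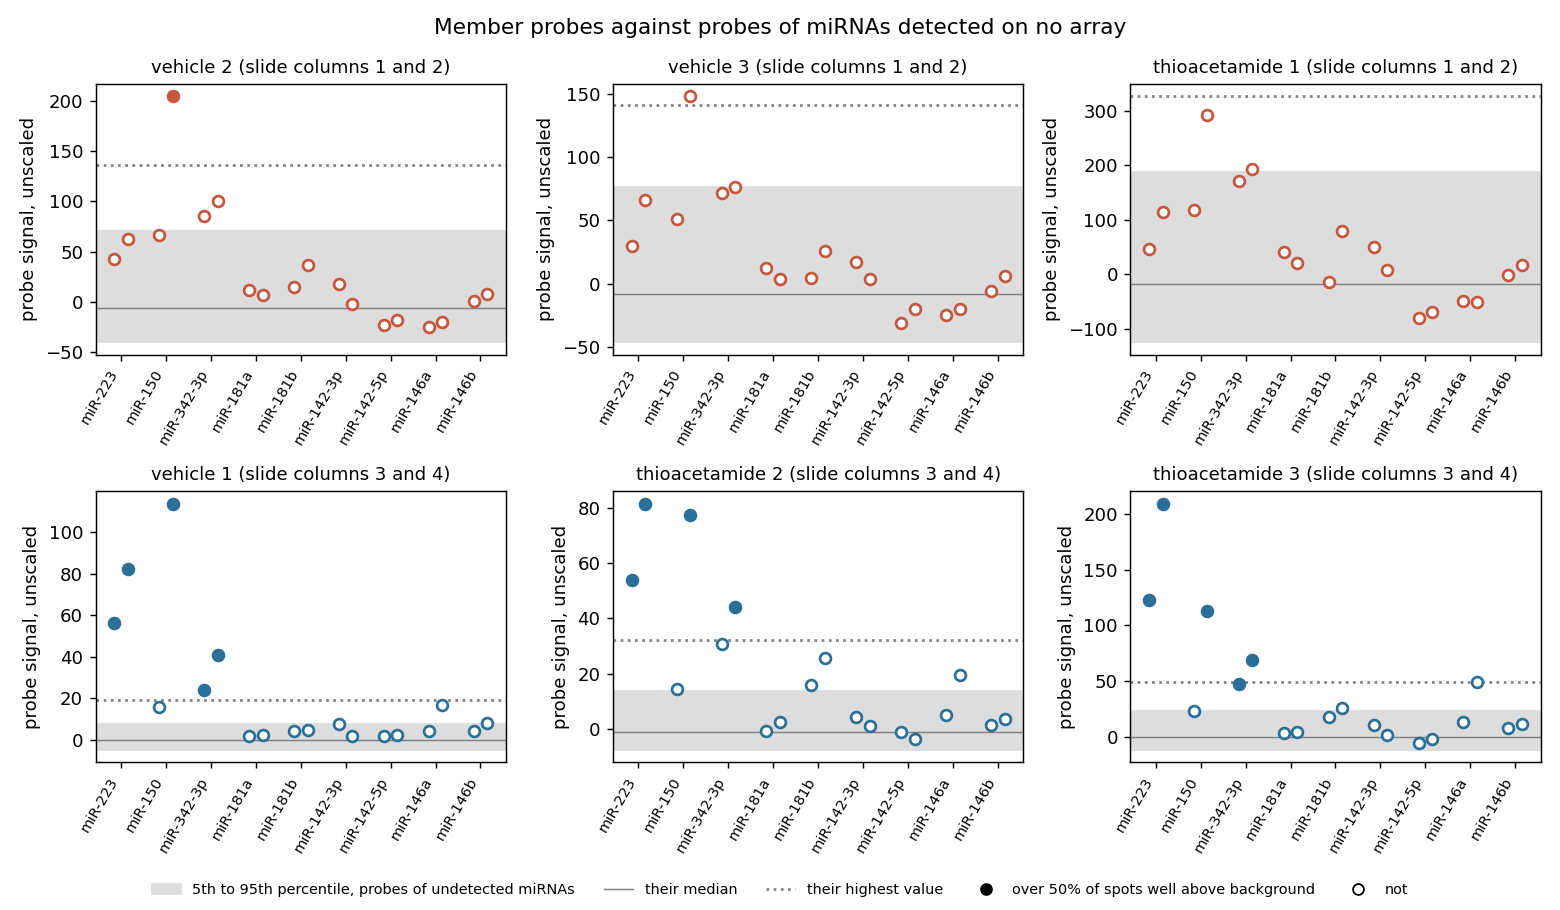
Unscaled signal (y axis) of the 2 probes of each of the 9 members (x axis) on each array; the grey band is the 5th to 95th percentile of the 1429 probes of undetected miRNAs, the dotted line their highest value, and filled circles mark probes with over 50% of spots well above background. On columns 3 and 4 (lower row) the miR-223 probes stand above the dotted line on every array, and on columns 1 and 2 (upper row) they lie inside the band. The undetected probes include those of the undetected members, and on thioacetamide 3 the dotted line is the longer miR-146a probe itself.

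The 6 members that met the detection rule on no array are given by their values alone, with no fold change. Of their 36 scaled values, 32 were at or under the floor of 46.1 that was set before taking logs, and 8 were below 0. miR-181a had scaled signals of 4.43, 24.7 and 26.5 in vehicle rats and 28.1, 1.85 and 7.04 in thioacetamide rats. miR-181b, which differs from it at 3 of 23 bases, had 9.66, 67.0 and 48.5 in vehicle rats and 29.1, 53.4 and 34.9 in thioacetamide rats. In both cases the high and low values were spread over the 2 groups. The longer miR-181b probe reached the 99.3 percentile of the undetected probes on thioacetamide 2, and none of its spots there was well above background.

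The pan-leukocyte pair was detected on no array. miR-142-3p had scaled signals of 10.0, 20.5 and 33.4 in vehicle rats and 26.2, 7.10 and 10.3 in thioacetamide rats. miR-142-5p had 4.64, -51.6 and -82.1 in vehicle rats and -64.9, -6.43 and -5.83 in thioacetamide rats, the values well below 0 all lying on columns 1 and 2. Thus the miRNAs that mark nearly all leukocytes were not detectable in this plasma on these arrays, which bears on the label: the detected signal was that of miR-223, miR-150 and miR-342-3p alone. In plasma, fewer contributing cells and less miRNA released per cell cannot be told apart.

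Among the NF-κB-responsive pair, miR-146a came closest to detection. Its scaled signals were 22.3, -57.9 and -72.1 in vehicle rats and -43.5, 31.5 and 50.6 in thioacetamide rats. All 3 arrays of columns 3 and 4 were positive and all 3 of columns 1 and 2 negative, whichever group they belonged to. The longer miR-146a probe lay at the 98.5 to 99.9 percentile of the undetected probes on columns 3 and 4, with 50% of its spots well above background on thioacetamide 3 and 20% on vehicle 1, and at the 31.7 to 37.2 percentile on columns 1 and 2. The undetected probes include this probe itself, and on thioacetamide 3 it was the highest of them (unscaled signal 49.2). The scanner software's own call per miRNA, which uses a rule of its own, marked miR-146a as detected on vehicle 1 and thioacetamide 3. miR-146b had scaled signals of 13.2, 12.7 and 0.0095 in vehicle rats and 6.88, 6.12 and 15.4 in thioacetamide rats, with no array high.

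Across the 9 members, the scaled signals of 6 (66.7%) separated the sides of the slide without overlap: miR-150, miR-342-3p, miR-181a and miR-142-3p were higher on columns 1 and 2, and miR-142-5p and miR-146a were lower. The share over all 677 miRNAs was 80.5%, and over the 578 detected on no array it was 87.9%. The treatment groups were separated by none of the 9 members, against 5.47% of the 677.

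Subtracting from each probe the background fitted to its base composition, an alternative added after the data were seen, changed miR-223 most. Its scaled signals became 140, 46.9 and 34.2 in vehicle rats and -19.1, 163 and 255 in thioacetamide rats, so that all 3 arrays of columns 1 and 2 fell below the 3 of columns 3 and 4. Its log2 change became 0.87 (limma adjusted p = 0.400), that of miR-150 was -0.87 (limma adjusted p = 0.139) and that of miR-342-3p was -0.40 (limma adjusted p = 0.521). On columns 1 and 2 the miR-223 signals were near or under the floor of 46.1 used for the values as reported. The 0.87 therefore rests mainly on vehicle 1, thioacetamide 2 and thioacetamide 3, so it is not separate from the unbalanced slide side. None passed the test. Under this setting 17 miRNAs were higher and 3 lower after thioacetamide.

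**Figure D4:**
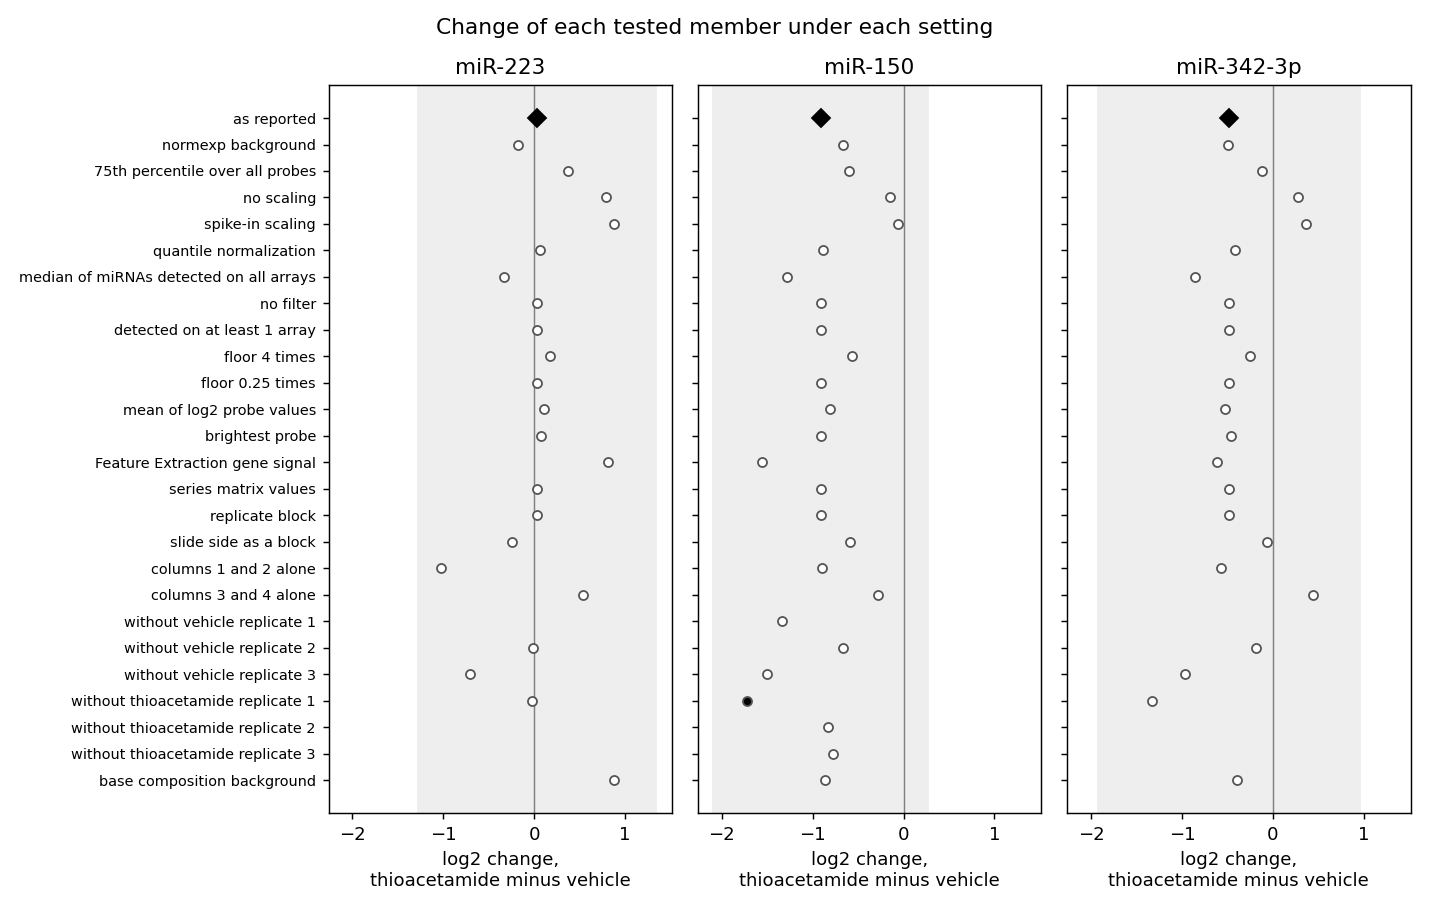
Log2 change, thioacetamide minus vehicle (x axis), of miR-223, miR-150 and miR-342-3p under each processing setting (y axis); the diamond is the value as reported, the grey band its 95% confidence interval, and a filled circle an adjusted p under 0.05. miR-150 stays below 0 throughout, from -1.72 to -0.066, and passes only without thioacetamide 1, while miR-223 and miR-342-3p fall on both sides of 0.

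Differences between miRNAs within an array do not depend on that array's scale factor, and 6 pairs were compared in this way with two-sided exact permutation tests, whose smallest possible p with 3 against 3 arrays is 0.1. The log2 signal of miR-150 minus that of miR-342-3p was 0.66 ± 0.30 in vehicle rats (SD, n = 3) and 0.23 ± 0.07 in thioacetamide rats (SD, n = 3). The groups did not overlap, and they differed by -0.43 (exact permutation p = 0.1, adjusted p = 0.45), with -0.33 on columns 1 and 2 and -0.73 on columns 3 and 4. Relative to miR-451, the erythrocyte miRNA that fell by 1.31 on the log2 scale (limma adjusted p = 0.0427), the differences were 1.34 for miR-223 (exact p = 0.2, adjusted p = 0.45), 0.40 for miR-150 (exact p = 0.8, adjusted p = 0.8) and 0.83 for miR-342-3p (exact p = 0.3, adjusted p = 0.45). On columns 3 and 4 these were 2.14, 1.31 and 2.05, and on columns 1 and 2, where neither miR-223 nor miR-342-3p was well above background on any array, they were -0.052, 0.086 and 0.41. The log2 change of miR-451 was below 0 in 26 of 26 alternatives but passed in 14 of them, and was -0.56 with no scaling (limma adjusted p = 0.598) and -0.47 with spike-in scaling (limma adjusted p = 0.641). The miR-223 change exceeded that of miR-150 by 0.94 (exact p = 0.3, adjusted p = 0.45) and that of miR-342-3p by 0.51 (exact p = 0.8, adjusted p = 0.8). No pair passed, and the design allows none to.

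By pattern over the 6 arrays, the tested miRNA most like miR-150 among 58 was miR-342-3p, and the reverse held, with a root mean square difference of centred log2 values of 0.28 (median over all 58, 1.11 for either). Next to miR-150 came miR-27a (0.38) and miR-20b-5p (0.44), and next to miR-342-3p came miR-466b-1* and miR-328a (0.50 each). The nearest to miR-223 were miR-23a (0.16), miR-107 (0.39) and miR-320 (0.39), against a median of 0.98. These arrays share the side pattern described above, so the likeness is a description of 6 arrays.

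Other miRNAs from the same precursors or with the same seeds gave almost no signal. Of 12 listed, 9 were on the array, and 8 of these were detected on no array. miR-150*, from the other arm of the miR-150 precursor, was detected on thioacetamide 3 alone, its scaled signals being 12.6, 6.87 and -58.9 in vehicle rats and -45.4, 79.2 and 118 in thioacetamide rats. It was not tested.

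Further miRNAs known from immune cells are made in many other tissues too. Of 13 listed, 12 were on the array and 4 were tested, of which 2 rose, 0 fell and 2 did not pass, with a median log2 change of 2.01. Both that rose are also made in liver and other tissues: miR-21, induced in injury and inflammation, by 3.22 on the log2 scale (limma adjusted p = 0.00107) and miR-29a, a repressor of collagen genes, by 2.11 (limma adjusted p = 0.00760). On columns 1 and 2 and on columns 3 and 4 the changes were 3.44 and 2.83 for miR-21 and 1.67 and 2.48 for miR-29a; the calls were kept in 23 of 25 alternatives for miR-21 and in 19 of 25 for miR-29a. miR-27a had a log2 change of -0.88 (limma adjusted p = 0.129) and miR-24 of 1.91 (limma adjusted p = 0.0819). Of the 13, 4 (miR-27a, miR-24, miR-221 and miR-222) also stand in the platelet and endothelial list.

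Lists of miRNAs from other sources were followed as well. The summed scaled signal of the 8 erythrocyte miRNAs on the array was 10755 to 13736 in vehicle rats and 6358 to 6596 in thioacetamide rats; 7 of the 8 were tested, 1 fell (miR-451), 6 did not pass, and miR-144 was detected on no array. miR-92a of this list had a log2 change of 0.85 (limma adjusted p = 0.220), opposite in sign to miR-451. Before scaling the erythrocyte sums overlapped, at 6732 to 12854 in vehicle rats and 5113 to 14520 in thioacetamide rats, the highest being thioacetamide 1. The summed signal of the 8 hepatocyte miRNAs was 429 to 560 and 13248 to 42152, with 4 of 5 tested higher, among them miR-122, the main liver miRNA, by 8.10 on the log2 scale (limma adjusted p = 0.000406). For the platelet and endothelial list it was 290 to 406 and 326 to 1167; 3 of its 10 were tested, none passed, and miR-126, its defining member, was detected on no array. The 9 leukocyte-enriched miRNAs summed to 421 to 850 in vehicle rats and 489 to 586 in thioacetamide rats, counting values below 0 as 0. The part of these other sources in the values of miR-223, miR-150 and miR-342-3p was not tested.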

How the data were processed

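The scanner files hold, per the file headers, the output of Agilent Feature Extraction (version 10.7.3.1 per the submitters' processing notes) for 1-colour arrays: the deposited processed signal is an intensity from which the software had subtracted background, with calls for spots well above background (multiplier 13) and outliers. The authors' deposited value table equals this signal within 0.005. Of 13540 miRNA spots per array, marked outliers (2126 over the 6 arrays) and 715 control spots were left out, and none was saturated.

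Spots were averaged per probe and probe means summed per miRNA. Each array was divided by its 75th percentile, taken over 12 probes that every array detected. These probes come from among the 8 miRNAs detected on every array: miR-451, miR-16, miR-25, miR-92a, miR-19b, miR-1224, let-7d* and miR-328a. After this scaling miR-451 passed the test between the groups (-1.31, limma adjusted p = 0.0427) and the others did not. The groups did not overlap for miR-451, nor for miR-16 (-1.13, limma adjusted p = 0.0585) and miR-1224 (2.44, limma adjusted p = 0.0686), and overlapped for the rest. The side coefficient passed only for let-7d* (2.53) and miR-328a (2.27), both at limma adjusted p = 0.0165. The part of these 8 in the scaled values was not tested beyond the scaling alternatives. Then a floor at the 5th percentile of detected miRNAs (46.1) was set and log2 taken. miRNAs detected on at least 3 arrays were tested with lmFit and eBayes of limma 3.58.1 in R 4.3.3, with Benjamini-Hochberg adjustment over all 59 at 0.05. The procedure was tested on simulated data. The side of the slide comes from the column number in the array's position.

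The 9 miRNAs and the other lists were chosen with earlier results of these data known. Named are all 9, the 3 tested miRNAs most like each tested one, miR-451, miR-122, and the tested miRNAs of the immune list (none of the same-precursor list was tested). miR-150*, miR-144, miR-126, miR-92a, miR-221, miR-222, miR-16, miR-25, miR-19b, miR-1224 and let-7d* were named after their values were seen. Feature positions and names are those of the array design. Alternatives covered background, scaling, filter, floor, summary per miRNA, slide side, replicate number and leaving out each array. With an array left out, the scaling probes, the floor and the tested set were chosen anew from the remaining arrays.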

Additional observations from a re-analysis of the deposited data

How the results depend on the processing

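No member passed the test under any alternative with 1 exception, miR-150 without thioacetamide 1 (-1.72, limma adjusted p = 0.0229), a setting in which 47.2% of the 53 tested miRNAs passed. miR-150 was below 0 in 25 of 25 alternatives, from -1.72 to -0.066, and from -1.72 to -0.67 with 1 array left out. Leaving out an array also renewed the scaling probes and the floor, so each such range holds both changes. miR-223 turned below 0 with normexp background (-0.18), median scaling, over miRNAs that every array detected (-0.34), the side as a block (-0.25) and columns 1 and 2 alone (-1.03), and ranged from -0.71 to -0.018 with 1 array left out. miR-342-3p turned above 0 with no scaling (0.27), spike-in scaling (0.36) and columns 3 and 4 alone (0.45), and ranged from -1.33 to -0.18 with 1 array left out. Without vehicle 1, thioacetamide 2 or thioacetamide 3, and among miRNAs detected on all 6 arrays, miR-223 and miR-342-3p were not tested; in the last case miR-150 was not either. Relative to miR-451, miR-150 ranged from -0.10 (without vehicle 1) to 0.69 with 1 array left out. On columns 1 and 2 the miR-223 change turned below that of miR-150 (-0.14), miR-342-3p (-0.46) and miR-451 (-0.052), but there neither miR-223 nor miR-342-3p was well above background on any array. The cause of these turns was not tested. Scaling moved the median change of all tested miRNAs by 0.52 (none), 0.60 (spike-in), -0.39 (quantile) and -0.42 (median), and normexp by -0.47.

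The counts of miRNAs higher and lower after thioacetamide, 9 and 1 as reported, were 22 and 0 with no scaling, 3 and 0 when the percentile used all probes, 21 and 0 with spike-in scaling, 5 and 2 with quantile normalization, 2 and 0 with no filter, 14 and 5 for detection on at least 1 array, 0 and 2 for all 6 arrays, 14 and 3 with the brightest probe, 0 and 0 on columns 1 and 2, 33 and 4 on columns 3 and 4, and 17 and 3 with base-composition background. Only 1 of the 2 counts moved by over 1.5 times with normexp (5 higher), median scaling (4 lower), a floor 4 times as high (4 lower) or 0.25 times as high (0 lower), mean log2 (2 lower), the software's own signal per miRNA (0 lower) and the side block (2 lower). On columns 1 and 2 thioacetamide, and on columns 3 and 4 vehicle, is a single array. The counts listed for a side alone therefore have no spread within that group, and no conclusion is drawn from them. With 1 array left out the counts ranged from 6 to 18 higher and from 0 to 7 lower.

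The replicate numbers were not taken as pairs. The deviations of same-numbered arrays correlated at -0.70, -0.31 and -0.66, but each such pair lay on opposite sides of the slide. All other combinations across the sides were also negative (-0.14 and -0.71). Those on the same side were positive (0.73, 0.59, 0.23 and 0.74). These values follow the slide side, so they cannot tell whether the rats were paired. With the replicate block, 10 were higher and 0 lower, and the adjusted p was 0.959 for miR-223, 0.343 for miR-150 and 0.706 for miR-342-3p. Signal over background limits the 6 undetected members, for which no change can be given.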
